A study of Mus musculus with 48 samples.

Results

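The daily course of messenger RNA in the mouse pars tuberalis under chronic short days was read from 12 expression arrays, chosen by their source label of short day, out of 48 in the series. They cover ZT0, ZT4, ZT8, ZT12, ZT16 and ZT20 with 2 arrays each, where ZT counts hours from lights-on. All 12 came from male CBA/N mice, 8 weeks old, bought 3 weeks after birth and kept in 8 h of light at 400 lux and 16 h of darkness, so lights went off at ZT8. The pars tuberalis was punched with a 0.5 mm needle from frozen brain slices 0.5 mm thick, and each array measured RNA pooled from 25 mice. All 48 arrays shared 1 estimate of the spread, and values of other arrays are given where stated: the delay condition (chiefly ZT0, ZT4 and ZT8, mice 6 weeks old that had been kept under short days before the dark period was set back by 8 h), 2 of the advance condition labelled ZT16, its lights-on time (6 weeks old, short days before), and 12 of chronic long days (8 weeks old, 16 h of light for 2 weeks, lights off at ZT16). The animals carried no transgene or deletion by the labels. A punch takes whatever cells lie under the needle, so the values are those of a tissue and not of a sorted cell type. By the design text the entire experiment was done in 2 rounds. Whether a replicate number marks the same round at every time point is not stated, and p-values measure only the spread between the 2 arrays.

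The pars tuberalis is a thin sheet of endocrine cells around the pituitary stalk. Its thyrotrophs carry the melatonin receptor Mtnr1a, read the length of the night from melatonin, and release thyrotropin, which acts on tanycytes of the neighbouring hypothalamus. CBA mice make melatonin. Like most cells, they also run a circadian clock, in which ARNTL pairs with CLOCK or NPAS2 to switch on genes with E-boxes in their promoters. Among those genes are Per and Cry, whose proteins repress the pair, and Nr1d1 and Nr1d2, which repress Arntl and Nfil3. A further set, the PAR bZIP factors Dbp, Tef and Hlf with their antagonist Nfil3, acts on D-boxes.

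Thyrotroph genes were abundant in every array, with log2 values of 13.21 to 14.13 for Cga and 9.72 to 11.26 for Tshb. Cga encodes the common subunit of the glycoprotein hormones and Tshb the thyrotropin beta subunit. Dio2, the enzyme that activates thyroid hormone, was at 11.88 to 13.28 and is not taken as a marker of thyrotrophs. The median of all probe sets lay between 6.98 and 7.02 in the 12 arrays. Neighbouring tissue stood out in 3 arrays. Replicate 1 of ZT12 held 10.82 for Gh and 11.06 for Prl, hormones of the pars distalis, against medians of 6.47 and 5.87 over the 12 arrays. The choroid plexus gene Ttr stood at 14.02 in replicate 1 of ZT4 and 14.05 in replicate 1 of ZT20, against a median of 11.23, and the ZT4 array also had the highest mean of the 3 oligodendrocyte markers, 10.82 against 9.75 to 10.22 elsewhere. Replicate 2 of ZT20 also held 8.91 for Gh and 7.38 for Prl. Several counts of calls below are given with and without the first 3 arrays, an alternative chosen after seeing the data. Counts by peak or trough time, by size of range, of genes without overlap and of promoter motifs are from all 12 arrays only. In pooled tissue, fewer cells of a type and less RNA per cell cannot be told apart.

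The first question was how much of the transcriptome varied over the short-day cycle. Of 18194 genes, 1621 varied between the 6 time points, which is 8.91% (limma F test, adjusted p below 0.05 over all genes). Without the 3 arrays named above the count was 647, of which 584 were among the 1621. In a fit to the 12 arrays alone, with 6 residual degrees of freedom in place of 24, it was 89. A 24 h cosine passed for 2832 genes, or 15.6%, and 1448 passed both tests. Most courses were shallow. Among the 1621 genes the highest and the lowest time point differed by at least 1.5-fold in 578, by at least 2-fold in 61 and by at least 4-fold in 4, namely Neurod1, Mtnr1a, Dusp4 and Vegfd. The median range over all genes measured was 0.27 on the log2 scale.

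The highest level fell at ZT4 in 672 of the 1621 genes and at ZT0 in 475, which are 41.5% and 29.3% of them. Among all 18194 genes these were also the commonest peaks, with 24.6% at ZT4 and 19% at ZT0. ZT12, 4 h into the night, held 197 peaks, ZT20 103, ZT16 98 and ZT8 76. The lowest level fell at ZT12 in 776 genes. Of the peak times from the cosine, 1159 lay between ZT0 and ZT2 and 545 between ZT22 and ZT24, with a smaller rise of 195 between ZT12 and ZT14. In steps of 4 h, the fit to all arrays called most genes from ZT4 to ZT8, the last part of the light phase, when 382 genes passed (2.1%), of which 315 fell (1.73%) and 67 rose (0.368%). From ZT8 to ZT12, across lights-off, no gene passed with limma, against 1476 at an unadjusted p under 0.05. From ZT12 to ZT16 41 genes fell (0.225%) and 28 rose (0.154%), from ZT16 to ZT20 13 rose (0.0715%) and 5 fell (0.0275%), from ZT20 to ZT0 2 fell (0.011%), and from ZT0 to ZT4 31 passed (0.17%), of which 18 rose (0.0989%) and 13 fell (0.0715%). Single arrays moved these counts. Without replicate 1 of ZT16 the steps into and out of ZT16 held 1431 and 972 genes and the whole course 2765, against 428 for the step from ZT4 to ZT8, and then ZT16 rested on replicate 2 alone. Without replicate 2 of ZT16 the 2 steps held 12 and 7. The course count was lowest, 901, without replicate 2 of ZT12, and the step from ZT4 to ZT8 ranged between 63 without replicate 1 of ZT8 and 1227 without replicate 2 of ZT4. The step with the most genes was ZT12 to ZT16 in place of ZT4 to ZT8 in 3 of these fits. They were the fits without replicate 1 of ZT16, of ZT8 or of ZT4. Lower places in the order of the steps moved in other fits as well. The step from ZT8 to ZT12 held 237 genes without replicate 2 of ZT8.

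**Figure D1:**
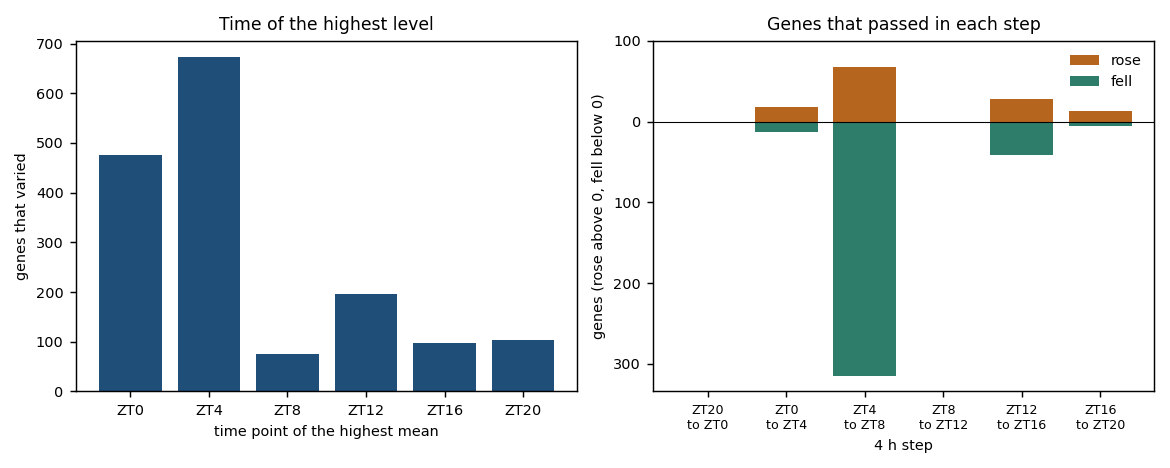
Left, number of the 1621 genes that varied under short days, by the time point of their highest mean. Right, number of genes that rose (above 0) or fell (below 0) between neighbouring time points, limma adjusted p below 0.05. ZT4 holds 672 peaks and ZT0 475, and the step from ZT4 to ZT8 holds 315 falls.

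The 2 arrays of a time point were compared through their deviations from the mean of the other time points. Across all 18194 genes these deviations correlated with r between 0.157 at ZT8 and 0.412 at ZT12, and across the 1621 genes with r between 0.517 at ZT16 and 0.786 at ZT12. Genes are not independent replicates, and the 1621 were chosen on these arrays, so the second range only describes them. The first principal component of the 12 arrays held 28.3% of the variance. Along the second, with 18.4%, replicate 2 of ZT16 stood at -29.6 and the other 11 arrays between -1 and 6.6. Its part in the calls at ZT16 is given below, where each gene has both arrays.

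Most clock genes varied. Of 23 clock genes measured, 16 varied over the short-day cycle, against 8.91% of all genes, and 14 did so without the 3 arrays. The count was 15 in the fit to the short-day arrays alone. The plot of clock genes shows the 16 courses in the order of their cosine peaks, which form 2 blocks, 11 genes from ZT 1.2 to ZT 8.27 and 5 from ZT 14.2 to ZT 19.4. No peak fell between ZT 8.27 and ZT 14.2.

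**Figure D2:**
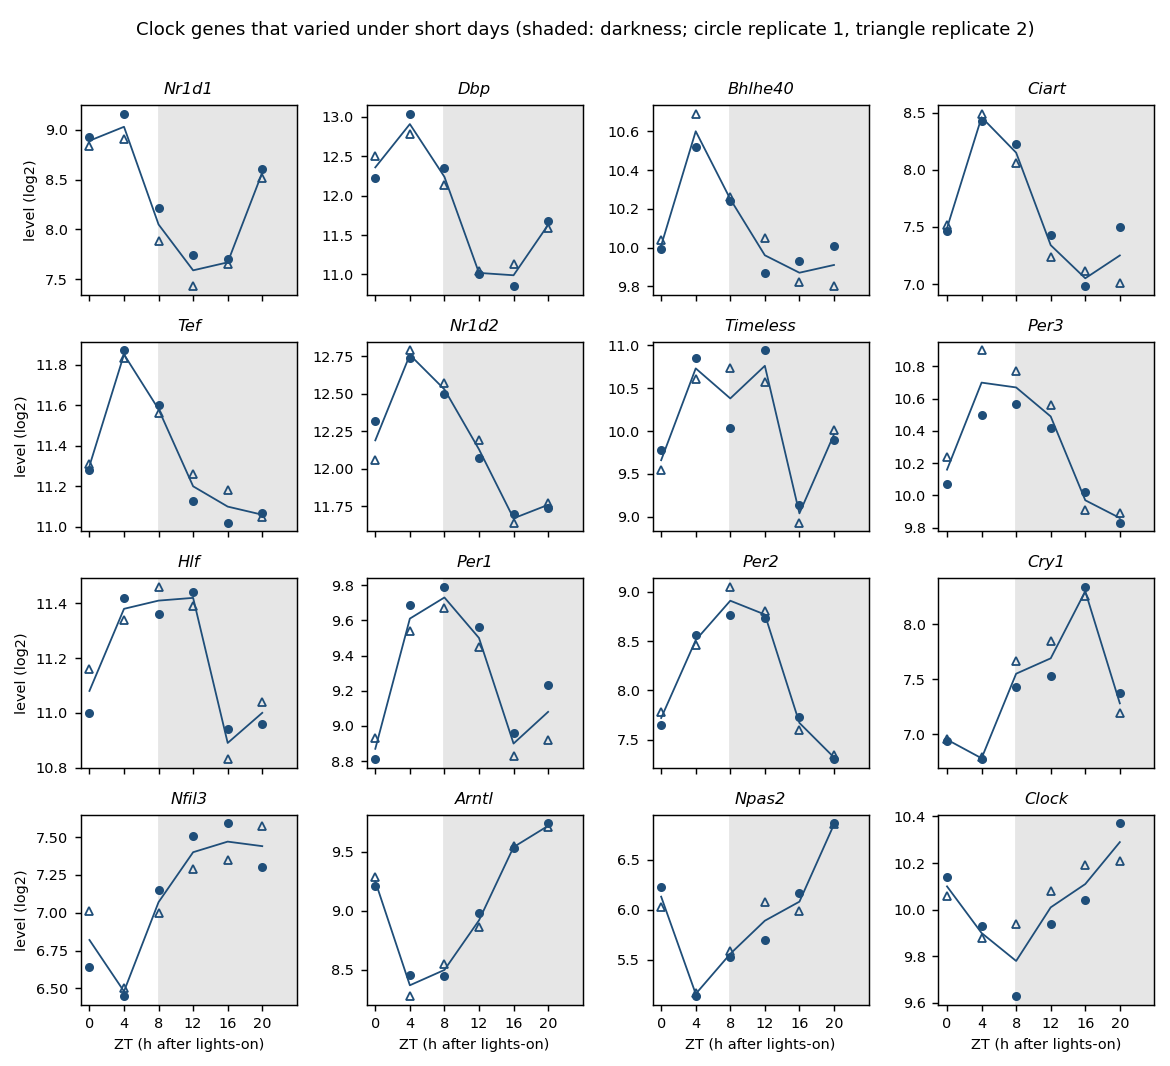
Level (log2) of the 16 clock genes that varied, by time of day (ZT, hours after lights-on), ordered by cosine peak from top left to bottom right. Circles are replicate 1, triangles replicate 2 and lines their mean, with darkness shaded. Nr1d1, Dbp and the genes of the top rows are high at ZT4, and Arntl, Npas2 and Clock at ZT20.

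Activators stood highest at the end of the night. Arntl, the non-redundant activator of the clock, was at 9.21 and 9.29 at ZT0, 8.46 and 8.28 at ZT4, 8.45 and 8.55 at ZT8, 8.98 and 8.86 at ZT12, 9.53 and 9.55 at ZT16 and 9.74 and 9.71 at ZT20. Both ZT20 arrays stood above all others and both ZT4 arrays among the lowest 3, a range of 1.35 or 2.55-fold (adjusted p = 1.87e-07). Npas2, a partner of ARNTL that can replace CLOCK, was at 6.23 and 6.03 at ZT0, 5.14 and 5.17 at ZT4, 5.53 and 5.59 at ZT8, 5.7 and 6.08 at ZT12, 6.17 and 5.99 at ZT16 and 6.86 and 6.85 at ZT20. It rose late, by 0.77 ± 0.13 (SE) from ZT16 to ZT20, a call lost without replicate 2 of ZT16 or replicate 1 of ZT20. It fell from ZT20 to ZT0 by 0.72 on the log2 scale, a step that lost its call in each of the fits without 1 array of ZT20 or ZT0. Clock followed them with a smaller range, 0.51 (adjusted p = 0.0293). Its call was lost without replicate 1 of ZT4, ZT8 or ZT20. Arntl2, a paralog of Arntl, showed a range of 0.19 and did not pass (adjusted p = 0.762).

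Repressors of the activator pair divided into a day group and Cry1. Per2 was at 7.65 and 7.78 at ZT0, 8.56 and 8.46 at ZT4, 8.77 and 9.05 at ZT8, 8.73 and 8.81 at ZT12, 7.73 and 7.6 at ZT16 and 7.3 and 7.34 at ZT20. It was highest around lights-off, with the 4 arrays of ZT8 and ZT12 above the other 8, and lowest at ZT20, a 3.02-fold range (adjusted p = 7.42e-10). Per1, which light and glucocorticoids also induce, and Per3 had ranges of 0.86 and 0.84 and cosine peaks at ZT 7.8 ± 0.6 h and ZT 7.03 ± 0.44 h (SE), against ZT 8.27 ± 0.27 h for Per2, so the errors of Per1 and Per2 overlap. Cry1, the repressor that acts latest, was at 6.94 and 6.96 at ZT0, 6.77 and 6.79 at ZT4, 7.43 and 7.67 at ZT8, 7.53 and 7.85 at ZT12, 8.34 and 8.26 at ZT16 and 7.37 and 7.19 at ZT20. Both ZT16 arrays stood above the other 10, and Cry1 fell from ZT16 to ZT20 by 1.03 on the log2 scale (adjusted p = 3.08e-05). Cry2 had a range of only 0.15 and did not pass (adjusted p = 0.943).

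Ciart, a repressor of ARNTL and CLOCK also called Chrono, was at 7.46 and 7.52 at ZT0, 8.43 and 8.49 at ZT4, 8.23 and 8.06 at ZT8, 7.43 and 7.24 at ZT12, 6.98 and 7.11 at ZT16 and 7.5 and 7.01 at ZT20, a 2.67-fold range (adjusted p = 4.05e-05). The 4 arrays of ZT4 and ZT8 stood apart above the other 8. Bhlhe40, which competes for E-boxes, was highest with 10.52 and 10.69 at ZT4 and lay between 9.80 and 10.26 in the others (adjusted p = 4.91e-06). Timeless, a replication fork protein named after a fly clock gene, was at 9.78 and 9.54 at ZT0, 10.85 and 10.61 at ZT4, 10.03 and 10.73 at ZT8, 10.94 and 10.57 at ZT12, 9.14 and 8.93 at ZT16 and 9.9 and 10.01 at ZT20. It dropped in both ZT16 arrays below the other 10, by 1.72 on the log2 scale from ZT12 (adjusted p = 1.95e-07). A second probe set of Timeless had a range of 1.77 and stood highest at ZT4. Bhlhe41 and the casein kinases Csnk1d and Csnk1e, which phosphorylate PER, had ranges of 0.40, 0.11 and 0.26 and did not pass (adjusted p = 0.167, 0.828 and 0.381).

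Of the REV-ERB receptors, repressors of Arntl, Nr1d1 was at 8.93 and 8.84 at ZT0, 9.16 and 8.91 at ZT4, 8.22 and 7.88 at ZT8, 7.74 and 7.43 at ZT12, 7.7 and 7.65 at ZT16 and 8.61 and 8.52 at ZT20. It was high from ZT20 through ZT4, fell by 0.98 on the log2 scale from ZT4 to ZT8 (adjusted p = 5.25e-05), and its cosine peak at ZT 1.2 ± 0.26 h was the earliest of the 16. Nr1d2 peaked later, at ZT 5.48 ± 0.38 h, with its 2 highest values at ZT4 and a range of 1.09 (adjusted p = 2.33e-06). The ROR receptors Rora and Rorb, which activate through the same element, had ranges of 0.36 and 0.41 and did not pass (adjusted p = 0.421 and 0.227).

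All 4 genes of the PAR bZIP group varied. Dbp, the output factor with the widest swing among clock genes, was at 12.22 and 12.5 at ZT0, 13.04 and 12.78 at ZT4, 12.35 and 12.13 at ZT8, 11 and 11.05 at ZT12, 10.85 and 11.13 at ZT16 and 11.68 and 11.59 at ZT20, a 3.78-fold range (adjusted p = 1.41e-06). Its night arrays of ZT12 and ZT16 were the lowest 4 and those of ZT4 the highest 2. A second probe set of Dbp had a range of 2.11 and the same peak time point. Tef, named after embryonic thyrotrophs, was highest with 11.87 and 11.83 at ZT4 and lowest with 11.07 and 11.05 at ZT20 (adjusted p = 2.95e-05). The call of Tef was lost in the mean over all its probe sets. Hlf had a range of 0.53 with no clear single peak, at 11.42 and 11.34 at ZT4, 11.36 and 11.46 at ZT8 and 11.44 and 11.39 at ZT12 (adjusted p = 0.00832), and did not pass without the 3 arrays. Nfil3 was lowest with 6.45 and 6.5 at ZT4 and highest with 7.59 and 7.35 at ZT16, a 1.99-fold range (adjusted p = 0.000544). Of 18 other clock-controlled genes measured, 11 varied, against 8.91% of all genes, 7 did so without the 3 arrays, and 2 with the short-day arrays alone. Wee1, a mitotic kinase, was highest with 10.3 and 10.37 at ZT8 and Usp2, a deubiquitinase, in the light phase, with 9.8 and 9.87 at ZT4 (adjusted p = 0.000219 and 0.00155).

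Promoter sequences of clock genes show which of the elements named above lie next to their starts. The 250 bases before the start were read for genes chosen after their courses were seen, 3 of the clock and, as the example of a cAMP response element, Dio2. Capitals mark the E-box CACGTG, the D-box TTATGNAA, the ROR core AGGTCA and the cAMP response element TGACGTCA, on either strand, and no stretches of capitals from 2 motifs overlap. The sequences are RefSeq's, build GRCm38.p6, 5′ to 3′ on the gene's strand. Ciart lies at chr3:95882229-95882478 on the minus strand, Per1 at chr11:69098699-69098948 on the plus strand, Per3 at chr4:151044666-151044915 on the minus strand and Dio2 at chr12:90739039-90739288 on the minus strand.
Ciart: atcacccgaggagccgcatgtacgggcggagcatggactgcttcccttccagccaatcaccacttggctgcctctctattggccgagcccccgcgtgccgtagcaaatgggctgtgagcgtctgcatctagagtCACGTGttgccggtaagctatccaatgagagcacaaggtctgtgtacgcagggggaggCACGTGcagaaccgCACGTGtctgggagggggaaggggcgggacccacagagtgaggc
Per1: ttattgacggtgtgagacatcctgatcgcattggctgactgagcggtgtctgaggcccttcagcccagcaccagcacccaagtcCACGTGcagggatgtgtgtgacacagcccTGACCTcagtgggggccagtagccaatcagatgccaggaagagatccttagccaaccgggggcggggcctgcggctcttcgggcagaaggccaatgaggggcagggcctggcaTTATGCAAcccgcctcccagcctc
Per3: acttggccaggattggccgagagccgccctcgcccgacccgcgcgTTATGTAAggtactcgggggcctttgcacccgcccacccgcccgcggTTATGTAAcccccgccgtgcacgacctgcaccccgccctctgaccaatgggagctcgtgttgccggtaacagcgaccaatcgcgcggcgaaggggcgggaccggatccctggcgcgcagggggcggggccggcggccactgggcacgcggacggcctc
Dio2: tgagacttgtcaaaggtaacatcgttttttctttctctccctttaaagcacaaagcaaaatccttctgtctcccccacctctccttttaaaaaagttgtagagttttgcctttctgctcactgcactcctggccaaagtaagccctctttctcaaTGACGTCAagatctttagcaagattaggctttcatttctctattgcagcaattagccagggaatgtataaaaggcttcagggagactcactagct

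Ciart held 3 E-boxes in this window, Per3 held 2 D-boxes, and Per1 held an E-box, a D-box and a ROR core in reverse (TGACCT). Promoters of 250 bases before to 50 after the start were matched by symbol for 14453 of the 18194 genes. An E-box was found in 4 of the 14 varying clock genes with a promoter (28.6%), against 10.2% of all genes, and a D-box in 3 (21.4%), against 2.88%. Among varying genes with their peak at ZT8, 7 of 56 promoters held a D-box (12.5%), Per1 and Noct, known as nocturnin, among them. Among those with their peak at ZT12, 15 of 160 held the cAMP response element (9.38%), against 2.92% of all genes, and the 15 include Dio2, Hlf and Hhip. The D-box at ZT8 and the cAMP response element at ZT12 were picked from all pairs of the 6 time points and the motifs above. Other pairs lay on either side of the share of all genes, with the cAMP response element in 0 of 72 promoters at ZT16. These shares were not tested, and a matching stretch of letters is not a shown binding site.

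Dark and light arrays were compared next. The 6 arrays of ZT12, ZT16 and ZT20 were set against the 4 of ZT4 and ZT8, with ZT8, the moment of lights-off, counted as light and ZT0 in neither. The test passed for 239 genes (1.31%), of which 72 were higher in darkness (0.396%) and 167 lower (0.918%). Without the 3 arrays named above these counts were 10 and 20, and with the short-day arrays alone 13 and 19. The higher count was 19 without replicate 1 of ZT8 and 248 without replicate 2 of ZT8, and the lower count was 27 without replicate 1 of ZT4 and 1126 without replicate 2 of ZT4. With ZT4 alone as light they were 242 and 1033. Over all genes, the 6 dark arrays lay wholly above the 4 light arrays for 108 (0.594%) and wholly below for 132 (0.726%), and 22 and 43 of these also passed the test. Of the 23 clock genes 5 were higher in darkness and 10 lower.

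Among genes higher in darkness with no overlap between the arrays, Arntl had the largest difference, with 8.86 to 9.74 in the dark arrays, against 8.28 to 8.55 in the light arrays, a difference of 0.96 ± 0.10 on the log2 scale (SE, adjusted p = 1.52e-07). Npas2 followed with a difference of 0.92 ± 0.08 and Nfil3 with 0.66 ± 0.11. These 3 kept their calls under all alternatives tried. Probe sets not used differed: a second one of Npas2 had a difference of 0.11 and a range of 0.34, and a second one of Arntl 0.21 and 0.29. Fgd3 and Neurod1 passed with larger differences, 1.02 and 1.01, but their dark and light arrays overlap. Outside the clock, Elf5, an ETS transcription factor of glandular epithelia, was at 6.87 to 7.06 in the dark arrays, against 6.06 to 6.54 in the light arrays. Its difference was 0.58 ± 0.09 (adjusted p = 0.000341), and in the fit to the short-day arrays alone the adjusted p was 0.0515. Rprm, a cell cycle inhibitor downstream of p53, Ccnjl, a cyclin-like gene, Sdf2l1, an endoplasmic reticulum chaperone component, Insl5, a relaxin-family peptide, Prg2, the eosinophil major basic protein, and Pim1, a kinase, had differences of 0.37 to 0.48. Each of these 6 lost its call without replicate 1 of ZT4, and all but Prg2 also without replicate 1 of ZT8.

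Among genes lower in darkness with no overlap, Dbp had the largest difference, with 10.85 to 11.68 in the dark arrays, against 12.13 to 13.04 in the light arrays, a difference of -1.36 ± 0.15 (SE, adjusted p = 7.66e-07). Ciart (-1.09 ± 0.13), Tspan4, a tetraspanin (-0.93 ± 0.09), Nr1d2 (-0.80 ± 0.09), Tef (-0.60 ± 0.07) and Bhlhe40 (-0.51 ± 0.06) came with it, and of these 6 only Tef lost its call under an alternative, in the mean over all its probe sets. Tspan4 was at 8.05 to 8.47 in the dark arrays, against 8.82 to 9.53 in the light arrays. Tex11, a meiosis gene, was dim, at 3.91 to 4.30 in the dark arrays, against 4.39 to 4.80 in the light arrays. Spock2, an extracellular proteoglycan, Rasl11b, a small GTPase, and Umodl1, a gene related to uromodulin, had differences of -0.66 ± 0.13, -0.61 ± 0.12 and -0.48 ± 0.13, and each lost its call without replicate 1 of ZT4, Umodl1 in 15 of 21 alternatives. The plot of dark and light arrays shows 20 of the genes without overlap, the 10 named by rule in each direction. That rule required that their arrays not overlap.

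**Figure D3:**
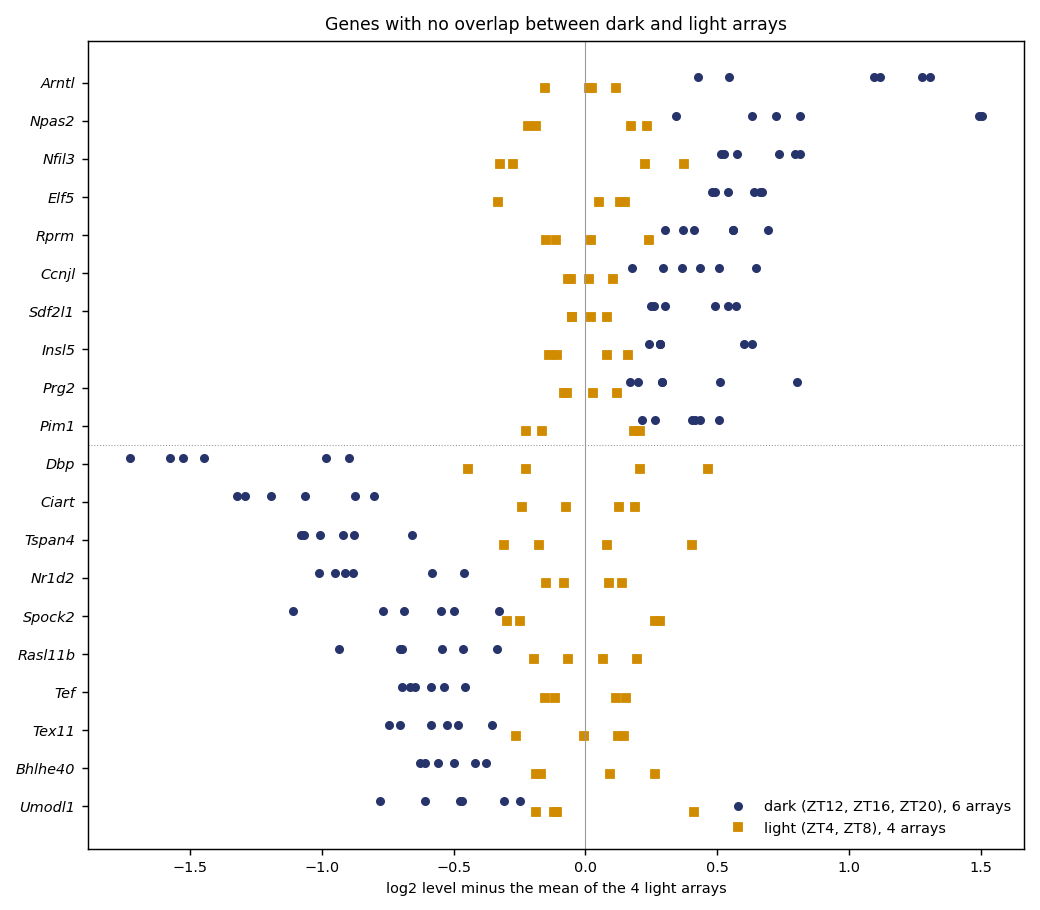
Log2 level in each of the 6 dark arrays (circles) and the 4 light arrays (squares), less the mean of the light arrays, for the 10 genes most raised and the 10 most lowered in darkness among those with no overlap. Arntl and Npas2 spread to the right and Dbp and Ciart to the left.

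A few genes left the cosine form. Of 18194 genes, 19 kept variation between time points beyond a 24 h cosine (0.104%). The count was 12 without the 3 arrays named above, 8 in the fit to the short-day arrays alone, and 561 without replicate 1 of ZT16. The strongest was Neurod1, a basic helix-loop-helix factor known for neuronal and endocrine differentiation, at 6.48 and 6.17 at ZT0, 6.3 and 6.32 at ZT4, 5.97 and 6.32 at ZT8, 6.21 and 6.18 at ZT12, 9.42 and 9.03 at ZT16 and 6.23 and 6.33 at ZT20. Both ZT16 arrays stood far above the other 10, all of which lay between 5.97 and 6.48. The rise from ZT12 to ZT16 was 3.03 ± 0.18 (SE, adjusted p = 6.92e-14), and Neurod1 fell by 2.94 on the log2 scale to ZT20. A second probe set of Neurod1 had a range of 3.50 and the same peak.

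Klhl41, a kelch protein of muscle, behaved alike at a lower level, with 7.45 and 7.49 at ZT16 against 5.42 to 6.57 at the other times (range 1.95, adjusted p = 7.42e-10). Lonrf1, a ring-finger protein, was at 10.43 and 10.26 at ZT16, against 9.31 to 9.77 at the other times, and fell by 1.00 on the log2 scale from ZT16 to ZT20 (adjusted p = 1.47e-09). Both arrays of ZT16 carried these rises, so they do not rest on replicate 2, which stood apart in the principal components. The plot of night genes sets these beside genes highest at ZT12 and beside Dusp4, which was lowest at ZT16.

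**Figure D4:**
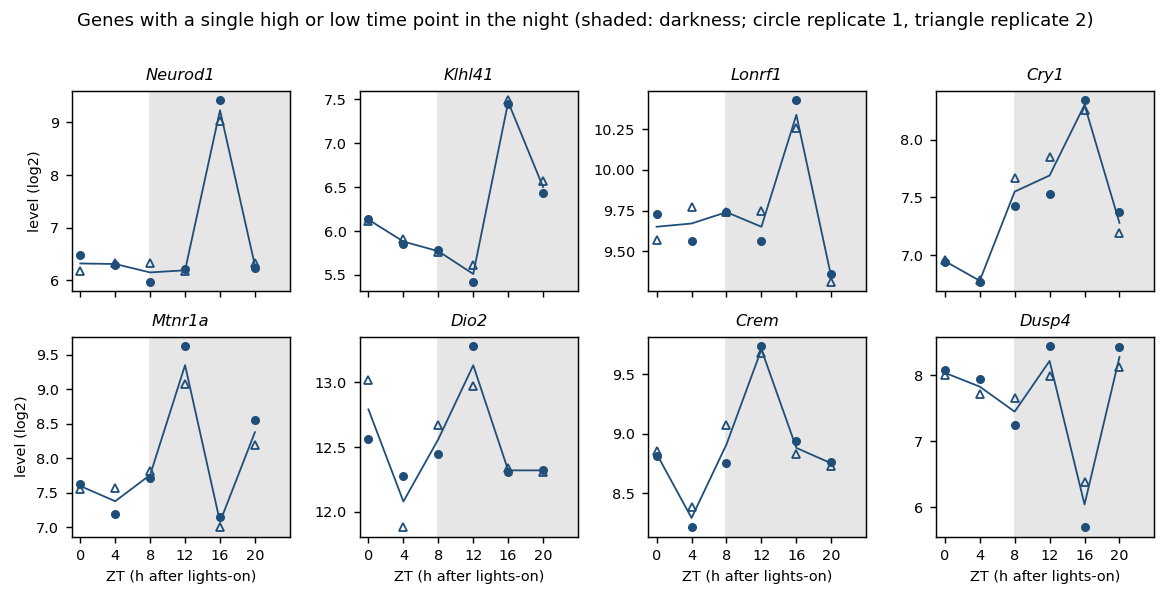
Level (log2) of 8 genes by time of day (ZT, hours after lights-on), with circles for replicate 1, triangles for replicate 2, lines for their mean and darkness shaded. Neurod1, Klhl41, Lonrf1 and Cry1 are highest at ZT16, Mtnr1a, Dio2 and Crem at ZT12, and Dusp4 is lowest at ZT16.

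The arrays of the advance condition labelled ZT16 come from other mice, 6 weeks old, taken at the lights-on of that regime, and entered the fit through its shared variance only. Neurod1 was at 9.83 and 9.68 there, Klhl41 at 8.27 and 7.92, Lonrf1 at 10.98 and 10.9 and Cry1 at 8.65 and 8.56. All 8 of these values lay above every short-day value of the same gene at the 5 other time points. Dusp4, at 6.87 and 6.01, and Timeless, at 9.52 and 9.35, lay in the same arrays below all short-day values at the 5 other time points. In the delay condition, where the light lasted to ZT16, the mean of Neurod1 was 7.15 at ZT16 and 6.97 to 7.26 from ZT0 to ZT12. These sets share the label ZT16 and differ from the short-day mice in light regime and age together, which cannot be told apart.

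Other genes were highest at ZT12, 4 h into the night. Mtnr1a, the melatonin receptor, was at 7.63 and 7.56 at ZT0, 7.19 and 7.57 at ZT4, 7.71 and 7.82 at ZT8, 9.63 and 9.07 at ZT12, 7.15 and 7.0 at ZT16 and 8.56 and 8.2 at ZT20. Both ZT12 arrays stood above the other 10 and both ZT16 arrays below them, a step of 2.27 down on the log2 scale with an SE of 0.40 (adjusted p = 0.00306). Replicate 1 of ZT12 held the highest value of Mtnr1a and the highest Gh and Prl, and the step did not pass without that array or without replicate 2 of ZT16. The course passed without each single array and did not pass without the 3 arrays, where its adjusted p was 0.14.

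Dio2 was at 12.56 and 13.02 at ZT0, 12.28 and 11.88 at ZT4, 12.45 and 12.67 at ZT8, 13.28 and 12.97 at ZT12, 12.31 and 12.34 at ZT16 and 12.32 and 12.31 at ZT20. Its ZT12 values were among the highest 3, with replicate 2 of ZT0 between them, and the lowest value came at ZT4 (range 1.05, adjusted p = 5.12e-05). Of its other probe sets, 1 had a range of 1.33 and 1 of 1.20, both highest at ZT12. Slco1c1, a thyroid hormone transporter, was at 12.42 and 12.2 at ZT12, against 11.51 and 11.42 at ZT20 (adjusted p = 0.0101), and lost its call without replicate 1 of ZT12. Replicate 2 of ZT0, at 12.3, lay between its ZT12 values, while replicate 1 of ZT0 was at 11.74. Tshb, whose product is the tissue's signal, did not pass (adjusted p = 0.991), with replicates as far apart as 11.26 and 9.72 at ZT4. Eya3, a co-activator of Tshb, did not pass either (adjusted p = 0.73), with all values between 8.95 and 9.43. Cga varied by 0.59 (adjusted p = 0.0172), lowest at ZT8, and lost its call without replicate 1 of ZT8.

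Of 11 thyrotropin and photoperiod genes measured, 7 varied, 4 of them with their peak at ZT12, against 8.91% of all genes, and 4 varied without the 3 arrays and 3 with the short-day arrays alone. Of 22 melatonin and cAMP signalling genes 6 varied, and 2 did in each of these alternatives. Crem, which encodes a cAMP-responsive factor and its repressor ICER, was at 8.81 and 8.85 at ZT0, 8.21 and 8.38 at ZT4, 8.75 and 9.07 at ZT8, 9.74 and 9.68 at ZT12, 8.94 and 8.83 at ZT16 and 8.76 and 8.73 at ZT20. Both ZT12 arrays stood above the other 10 and both ZT4 arrays were the lowest (range 1.41, adjusted p = 4.72e-06). Probe sets of Crem differ in range, from 0.08 to 0.71 in those not used. Pde4d, a cAMP phosphodiesterase, was also highest at ZT12 and had a range of 0.40 (adjusted p = 0.0113), and Pde10a was highest with 9.8 and 10.19 at ZT0 (adjusted p = 0.00644).

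Fosl2, an AP-1 factor, was highest with 9.45 and 9.22 at ZT12 and lowest with 8.58 and 8.2 at ZT0 (adjusted p = 6.77e-05). Ppp1r3c, a glycogen-targeting phosphatase subunit, was at 11.32 and 11.54 at ZT0, 11.35 and 11.13 at ZT4, 11.67 and 11.84 at ZT8, 12.36 and 12.28 at ZT12, 11.39 and 11.2 at ZT16 and 11.59 and 11.33 at ZT20. Its 2 ZT12 values stood above the other 10 and fell by 1.02 on the log2 scale to ZT16 (adjusted p = 4.15e-06), a call kept under all alternatives tried. Heat shock genes peaked with them: 4 of 11 cold-inducible and heat shock genes varied, against 8.91% of all genes, and all 4 were highest at ZT12. The count was 4 without the 3 arrays and 3 with the short-day arrays alone. Hspa1b was at 10.67 and 10.94 at ZT12 and 9.44 and 9.3 at ZT4, and Dnajb1 at 12.74 and 13.08 at ZT12 and 11.84 and 11.97 at ZT4 (adjusted p = 2.91e-05 and 2.93e-06). Hspa1a and Hspa1b are near-identical copies, and probe sets may not separate them. Piwil4, a PIWI protein, was highest with 7.97 and 7.26 at ZT12, a call lost without replicate 1 of that time point.

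Dusp4, a MAP kinase phosphatase, was at 8.09 and 8.0 at ZT0, 7.94 and 7.72 at ZT4, 7.24 and 7.66 at ZT8, 8.45 and 7.99 at ZT12, 5.69 and 6.38 at ZT16 and 8.43 and 8.13 at ZT20. Both ZT16 arrays stood below the other 10, and the rise to ZT20 was 2.24 ± 0.32 (SE, adjusted p = 0.000144). The fall into ZT16 and the rise out of it kept their calls under all alternatives tried.

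The end of the night had its own genes. Vegfd, a growth factor of lymphatic vessels, was at 9.87 and 9.93 at ZT0, 9.12 and 9.39 at ZT4, 7.73 and 8.14 at ZT8, 8.45 and 8.03 at ZT12, 9.31 and 9.62 at ZT16 and 9.92 and 10.21 at ZT20. Its 4 arrays of ZT20 and ZT0 were above the other 8, and the range of 2.13 was 4.37-fold (adjusted p = 2.13e-10). Both other probe sets of Vegfd, with ranges of 2.24 and 2.22, were highest at ZT20 as well. Gata2, a factor of thyrotroph and gonadotroph cells, was at 9.78 and 9.73 at ZT0, 9.98 and 9.96 at ZT4, 9.06 and 9.63 at ZT8, 9.82 and 9.54 at ZT12, 9.7 and 9.74 at ZT16 and 10.87 and 11.12 at ZT20. Both ZT20 arrays stood above the other 10. Gata2 rose from ZT16 to ZT20 by 1.28 ± 0.13, and fell by 1.24 on the log2 scale to ZT0 (adjusted p = 2.96e-07 and 2e-06), both under all alternatives tried.

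Fgd3 was lowest with 6.71 and 6.65 at ZT8 and highest with 8.36 and 8.31 at ZT20, a 3.15-fold range (adjusted p = 4.55e-09). Its other probe sets had ranges of 0.31 and 0.20. Cplx3, a complexin of regulated secretion, was at 7.31 and 7.25 at ZT0, 5.95 and 5.95 at ZT4, 6.04 and 5.62 at ZT8, 5.82 and 5.48 at ZT12, 6.12 and 5.48 at ZT16 and 7.56 and 6.96 at ZT20. It was high in the 4 arrays of ZT20 and ZT0 and at 5.48 to 6.12 in the other 8. Other genes highest at ZT0 were Fezf2, a zinc finger factor (8.09 and 8.4 at ZT0, against 7.3 and 7.17 at ZT12), and Ddit4l, an inhibitor of mTOR (10.01 and 9.84 at ZT0, against 8.88 and 8.7 at ZT16), with adjusted p = 8.05e-05 and 4.42e-05.

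The step from ZT4 to ZT8 brought the most falls, and genes of vessels and connective tissue were among them. Of 17 collagen and matrix genes 7 fell in this step and none rose, and of 11 endothelial genes 6 fell and none rose, against 1.73% of all genes that fell. Col3a1, a fibrillar collagen, was at 10.5 and 10.42 at ZT0, 11.03 and 10.93 at ZT4, 9.59 and 10.07 at ZT8 and 10.52 and 10.33 at ZT20 and between 9.77 and 10.22 at ZT12 and ZT16. Its ZT4 arrays were the highest 2, and it fell by 1.15 on the log2 scale to ZT8 (adjusted p = 1.11e-05). Plvap, a protein of fenestrated endothelium, was at 10.24 and 10.23 at ZT4 and 9.32 and 9.33 at ZT8 (adjusted p = 2.63e-05), and Aplnr, the apelin receptor, at 6.94 and 7.02 at ZT4 and 5.58 and 5.74 at ZT8 (adjusted p = 0.000229). These 3 falls kept their calls under all alternatives tried. Others of the lists did not: of 20 alternatives, Cdh5 lost its call in 5, Kdr and Col4a1 in 4 and Esam in 2, and each of these 4 lost it without replicate 1 of ZT8.

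The 4 meninges and fibroblast markers, 3 of which varied and of which Col3a1 is 1, had a mean of 10.84 and 10.79 at ZT4, against 9.89 and 10.32 at ZT8, and 10.12 to 10.72 at the other times. The 4 endothelial markers, of which only Cdh5 varied over the cycle, had a mean of 7.76 and 7.80 at ZT4, against 7.16 and 7.43 at ZT8. The dimmest of these markers was Pecam1, at 5.95 to 6.65. Their part in the fall of the other genes was not tested. Over the whole cycle 8 of 17 collagen and matrix genes and 5 of 11 endothelial genes varied, against 8.91% of all genes. Without the 3 arrays 4 and 3 did, and with the short-day arrays alone 1 and 1. The step held 72 genes without the 3 arrays, in place of 382.

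Against this fall some genes rose from ZT4 to ZT8. Zbtb16, a zinc finger factor induced by glucocorticoids, was at 7.82 and 7.68 at ZT0, 8.35 and 8.35 at ZT4, 9.32 and 9.41 at ZT8, 8.94 and 9.06 at ZT12, 8.39 and 8.13 at ZT16 and 8.2 and 8.37 at ZT20. Its ZT8 arrays were the highest 2 and its ZT0 arrays the lowest 2 (range 1.61, adjusted p = 0.000306). Of 17 glucocorticoid-responsive genes 6 varied, against 8.91% of all genes, and 5 without the 3 arrays, and 2 with the short-day arrays alone. Besides Zbtb16 and Per1 they were Tsc22d3, highest with 11.13 and 11.17 at ZT12, Fkbp5 and Errfi1, both highest at ZT8, and Nr3c2, the mineralocorticoid receptor, highest at ZT4. Nr4a3, an orphan nuclear receptor, stood at 8.48 and 8.22 at ZT8 and 8.28 and 8.41 at ZT12, against 7.48 and 7.6 at ZT0 and 7.61 and 7.54 at ZT4 (adjusted p = 0.000207). Its other probe sets had ranges of 0.39, highest at ZT16, and 0.12. The rise of Nr4a3 from ZT4 to ZT8 lost its call in 3 of 20 alternatives, the mean over all its probe sets among them. Of 27 immediate early genes 10 varied, against 8.91% of all genes, 5 with their peak at ZT20. The count was 4 without the 3 arrays and 2 with the short-day arrays alone.

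The arrays of ZT0, ZT4 and ZT8 of the delay mice were set beside the short-day ones. By their ZT they lie ahead of the added evening light, but the labels give a time and no day. The courses of the clock genes Nr1d1, Npas2, Cry1, Timeless and Bhlhe40 differed there from those of the short-day mice, so these arrays cannot be taken as a repeat of the same light phase. Under short days 521 genes varied between ZT0, ZT4 and ZT8 (2.86%), and in the delay mice 21 did (0.115%). The short-day count was 93 with the short-day and delay arrays alone, 37 with the short-day arrays alone, 118 without replicate 1 of ZT8 and 1441 without replicate 2 of ZT4. Both sets shared 12 genes, which are 2.3% of the short-day genes and 57.1% of the delay genes. All 12 moved the same way from ZT0 to ZT8 in both sets, 5 up and 7 down. They were Arntl, Bhlhe40, Ciart, Npas2, Per2 and Timeless of the clock, Tspan4, Vegfd, Fgd3 and Cplx3 described above, Kcna2, a potassium channel, and Slc47a1, a transporter of organic cations, the last 2 named after their values were seen.

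Vegfd was at 9.87 and 9.93, 9.12 and 9.39, and 7.73 and 8.14 at ZT0, ZT4 and ZT8 under short days, and at 10.92 and 11.07, 10.74 and 10.34, and 9.51 and 9.76 in delay. The delay values were higher at each time and fell between ZT0 and ZT8 by 1.37 on the log2 scale in delay, against 1.96 under short days, a difference in course that did not pass (adjusted p = 0.472). Fgd3 and Per2 also gave no difference in course that passed (adjusted p = 0.886 and 0.312). Over all genes the course differed between the sets for 112 (0.616%). In 5 of the 12 genes it did, Bhlhe40, Cplx3, Npas2, Timeless and Tspan4. At ZT4 Npas2 was at 5.14 and 5.17 under short days and at 6.47 and 6.36 in delay, Tspan4 at 9.53 and 9.21 under short days and at 8.18 and 8.09 in delay. Both genes also stood apart at ZT0. Npas2 was there at 6.23 and 6.03 under short days and at 6.8 and 6.9 in delay. Tspan4 was there at 8.44 and 8.57, and at 7.91 and 7.84. Timeless overlapped at ZT4, with 10.85 and 10.61 under short days and 10.67 and 10.28 in delay. The plot of both sets of mice shows Npas2, Tspan4 and Bhlhe40 turning at ZT4 under short days and going on to ZT8 in delay.

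**Figure D5:**
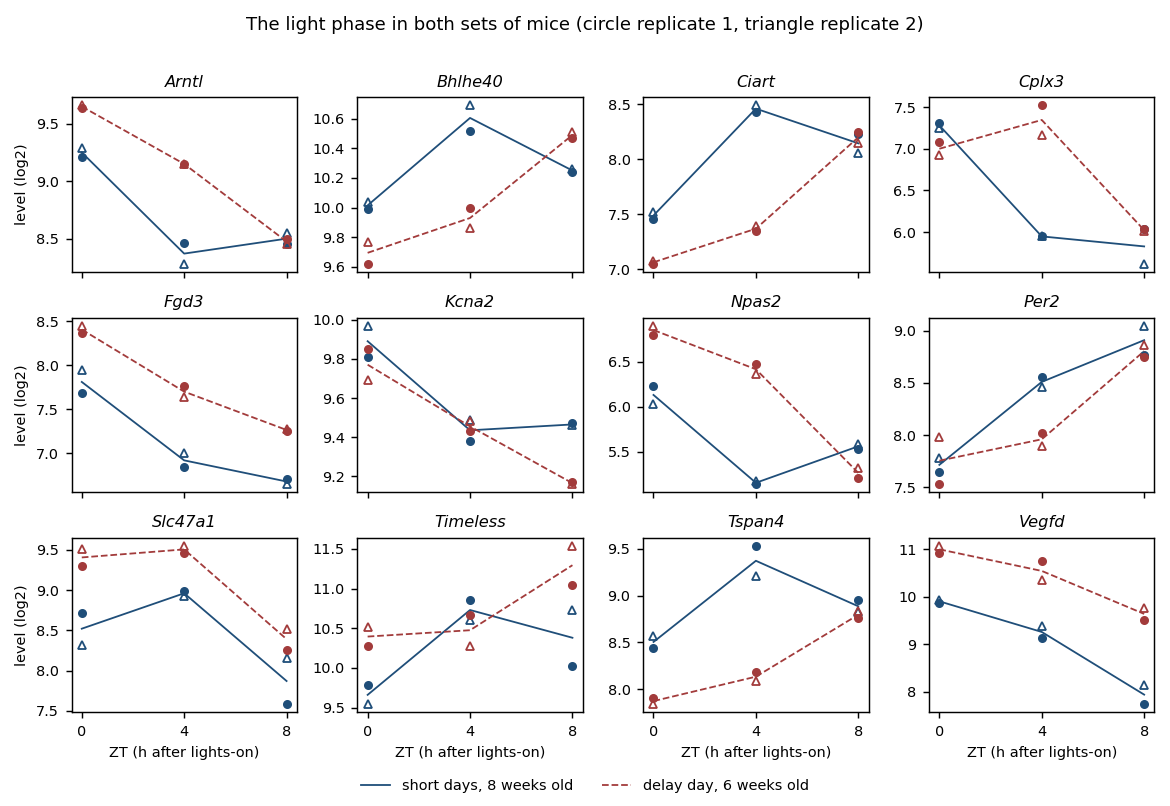
Level (log2) at ZT0, ZT4 and ZT8 of the 12 genes that varied in both sets, with solid lines for short-day mice, 8 weeks old, dashed lines for delay mice, 6 weeks old, circles for replicate 1 and triangles for replicate 2. All 12 genes move the same way from ZT0 to ZT8 in both sets, and Npas2, Tspan4 and Bhlhe40 stand apart at ZT4.

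The night genes were also set against mice of the same age under chronic long days, matched by the clock time in the titles. Over all genes 85 courses differed (0.467%), and 782 did (4.3%) when the arrays were matched by ZT instead. Neurod1 ranged over 3.08 log2 units under short days, against 0.57 under long days, where its time-point means lay between 6.70 and 7.27. Vegfd ranged over 2.13 under short days, against 0.72 under long days. Both courses differed between the day lengths (limma adjusted p = 4.42e-10 for Neurod1 and 8.84e-08 for Vegfd by clock time, and 2.69e-11 and 3.08e-09 by ZT), and both genes were chosen for a strong course under short days.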

How the data were processed

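Biotin-labelled RNA was hybridised to Affymetrix arrays. The values are the log2 probe set summaries the authors deposited, which the submitters' processing notes credit to RMA and R 2.8.0, and they were not normalized again. Of 45101 probe sets, 34958 carried 1 gene symbol, 932 several and 9211 none. Where a gene had several probe sets, the brightest on average in the 48 arrays stood for it, giving 18194 genes, 9012 of them with several probe sets, and no filter on dim genes.

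limma 3.58.1 in R 4.3.3 fitted a mean for each of 24 groups of 2 arrays (24 residual degrees of freedom), with variances moderated with a trend on the mean. Tests were two-sided, adjusted over all genes by Benjamini-Hochberg, threshold 0.05. Tests were an F test over the 6 time points, a 24 h cosine, the part a cosine leaves, the dark minus light difference, steps of 4 h, and the ZT0 to ZT8 course in delay. The model was tested on simulated data. No pair of arrays was identical. Precision is limited by the number of arrays.

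Replicate numbers are not stated to pair samples, and the replicate differences of time points correlated with r between -0.183 and 0.491, median 0.033 (15 pairs), so no block was used.

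Members, lists and tests were chosen with earlier results of these data known. Named genes were the 15 smallest p-values of the course and 10 of the non-cosine part, the 5 widest ranges per peak time point, the 10 largest dark rises and falls without overlap, the 3 largest per step, all clock genes, 10 genes set by name, and up to 4 per other list. The text leaves some out, a choice made after values were seen. Alternatives were the short-day arrays alone, no variance trend, brighter genes, mean probe sets, centring, a replicate block, an actin covariate, other light time points, and leaving out arrays. Promoters came from RefSeq, build GRCm38.p6.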

Additional observations from a re-analysis of the deposited data

Results flagged for a closer look

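The 15 genes with the smallest p-values of the short-day course were checked for a course that differed from that of other mice, by limma F tests of the difference adjusted over all genes. Between short days and the light phase of the delay mice, the ZT0 to ZT8 course differed for 7 genes. The adjusted p was 2.49e-05 for Nr1d1, 2.49e-05 for Npas2, 0.00133 for Ahsa2, 0.00626 for Cplx3, 0.0106 for Spon1, 0.0263 for Timeless and 0.034 for Cry1. Nr1d1 was at 8.22 and 7.88 at ZT8 under short days and at 8.83 and 8.92 in delay. Ahsa2, a co-chaperone homolog, was at 11.58 and 11.64 at ZT8 under short days and at 10.94 and 10.90 in delay. Spon1, a secreted matrix protein, was at 11.92 and 11.82 at ZT8 under short days and at 12.09 and 12.23 in delay.

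Between short and long days, matched by the clock time in the titles, the course over 6 time points differed for 14 of the 15 genes. The exception was Spon1, with an adjusted p of 0.0628 by clock time and 2.52e-07 when matched by ZT. The adjusted p was 4.42e-10 for Neurod1, 8.84e-08 for Vegfd, 6.04e-07 for Klhl41, 6.28e-07 for Nr1d1, 7.24e-06 for Per2, 1.77e-05 for Gata2, 2.22e-05 for Timeless and 2.59e-05 for Npas2. It was 9.28e-05 for Cry1, 0.000114 for Cplx3, 0.000622 for Arntl, 0.000948 for Fgd3, 0.0053 for Lonrf1 and 0.0214 for Ahsa2. The 15 genes were picked for a strong short-day course on the same arrays. The range over time points was 1.95 for Klhl41 and 1.65 for Gata2 under short days, against 0.98 and 0.50 under long days. The long-day replicates of ZT16 and ZT20 stood crosswise in several genes, as given above for Dbp and Mtnr1a. Of the 15 genes, Arntl was at 8.38 and 9.06 at ZT16 and at 8.93 and 8.26 at ZT20. Per2, at 9.19 and 9.18 and at 8.8 and 9.32, was not crossed in this way. What this does to the comparison of courses was not tested.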

How the results depend on the processing

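No named gene whose dark minus light difference passed changed the sign of that difference under the alternatives tried. The sign of the steps was not compared. Counts of calls moved, and the step with the most genes changed in 3 fits that left out 1 array. In the fit to the short-day arrays alone, the course held 89 genes, the cosine 427, the part beyond a cosine 8, darkness 13 higher and 19 lower, the steps ZT0 to ZT4 1, ZT4 to ZT8 25, ZT8 to ZT12 2, ZT12 to ZT16 14 and ZT16 to ZT20 10, and the light course 37. Of the 89 genes, 88 were among the 1621. Without the 3 arrays with neighbouring tissue, chosen after seeing the data, these were 647, 1177, 12, 10 and 20, steps of 9, 72, 36 (ZT12 to ZT16) and 7 (ZT16 to ZT20), 1 for ZT20 to ZT0 and 334 for the light course.

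Nothing states that the replicate numbers pair the samples. With the replicate block the course held 2838 genes, the part beyond a cosine 34, darkness 154 higher and 466 lower, the steps ZT0 to ZT4 128, ZT4 to ZT8 682, ZT8 to ZT12 3 and ZT16 to ZT20 39, the light course 1054 and the delay course 43. The mean of all probe sets gave 10 beyond a cosine, 4, 18 and 244 for the steps ZT20 to ZT0, ZT0 to ZT4 and ZT4 to ZT8, and 291 for the light course. The actin covariate gave 1 for ZT20 to ZT0, 105 for ZT12 to ZT16 and 28 for ZT16 to ZT20, the filter at log2 6 gave 1 for ZT20 to ZT0, and no variance trend 31 for ZT16 to ZT20. Short-day and delay arrays alone gave 93 for the light course. With ZT0, ZT4 and ZT8 as light 379 genes were lower in darkness, and with ZT4 alone 242 were higher and 1033 lower.

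Leaving out 1 short-day array gave 901 to 2765 genes for the course, 1179 to 3833 for the cosine, 13 to 561 beyond it, 19 to 248 higher and 27 to 1126 lower in darkness, 118 to 1441 for the light course and 20 to 24 for the delay course. The steps in order from ZT20 to ZT0 gave 1 to 5, 1 to 401, 63 to 1227, 0 to 237, 12 to 1431 and 7 to 972. The cause of these shifts was not tested. With 2 arrays a time point, few arrays limit the precision.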

Other observations

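Ribosomal protein genes had small ranges, with a median of 0.28 against 0.27 over all genes. Of 16, 4 varied, all lowest at ZT12, against 8.91% of all genes, and 8 passed the cosine test, against 15.6%. Without the 3 arrays named above 0 of the 16 varied (limma F test). Of 22 complex I genes 1 varied, Ndufa10, and 6 passed the cosine, against 15.6% of all genes, each lowest at ZT12. Rpl4, a large-subunit protein, was at 13.93 and 13.28 at ZT4 and 13.06 and 12.91 at ZT12 (limma adjusted p = 0.0161), with its highest value in replicate 1 of ZT4, the array rich in oligodendrocyte genes, and lost its call without that array. None of 13 cholesterol synthesis genes varied by the F test, while 5 passed the cosine, against 15.6% of all genes. Endoplasmic reticulum folding genes (2 of 22), secretory granule genes (1 of 14) and cell cycle genes (1 of 16) varied about as often as all genes, at 8.91%.

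Of 11 tanycyte genes 4 varied, against 8.91% of all genes, and the same 4 did so without the 3 arrays, while 1 did with the short-day arrays alone. They were Crym, a thyroid hormone binding protein, at 8.71 and 8.64 at ZT0 and 7.96 and 7.83 at ZT12, and Lhx2, Vim and Cd59a. Fabp7, a fatty acid binding protein of astrocytes and tanycytes, was at 10.7 and 10.46 at ZT4 and 9.5 and 9.5 at ZT12 (adjusted p = 4.64e-07) and kept its call under all alternatives tried. None of 18 hypothalamic neuron, 10 pars distalis, 11 microglia and macrophage or 7 blood cell genes varied by the F test. Of the 11 microglia and macrophage genes 5 passed the cosine, against 15.6% of all genes. Among genes highest at ZT16, the interferon-stimulated Ifi27l2a stood at 7.85 and 7.39 at ZT16 and Ifi202b at 6.93 and 6.49 at ZT16, and they lost their calls in 6 and 8 of 20 alternatives. Single arrays at other times came near these values. Ifi202b was at 6.9 and 5.89 at ZT12. Ifi27l2a was at 7.29 and 6.1 at ZT12 and at 6.54 and 7.3 at ZT20.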
